A study of Mus musculus with 105 samples.

Results

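The first day of differentiation was examined in bulk RNA of TX1072 cells, with 3 libraries at day 1 set against 3 libraries at day 0. These are 6 of the 105 samples of the study, chosen by line and day alone, and no measured value entered the choice. Of 52016 genes in the count table, 18871 passed a filter on low counts and were tested, and 33145 were not. TX1072 is a female mouse embryonic stem cell (mESC) line from a C57BL6/J (B6) by Cast/EiJ (Cast) cross, used as the single clone A3. On both days its B6 copy of Xist stood behind a promoter that responds to doxycycline, and its Rosa26 locus held the rtTA transactivator. The study followed the onset of random X inactivation over days 0 to 4 in single cells and in bulk, in this line and in 2 derived lines, TXdXicB6 and TXdXicCast, in which the X-inactivation center was deleted on 1 allele.

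At day 0 the cells grew on gelatin in serum medium with leukemia inhibitory factor (LIF) and both inhibitors of the 2i cocktail, CT-99021 against Gsk3 and PD0325901 against MEK. At day 1 they had spent a day on fibronectin, newly plated at low density, in serum medium without LIF and 2i. The serum also changed, from one of a grade made for embryonic stem cells to a serum of unnamed grade at a lower concentration. Withdrawal, serum, coating and plating therefore changed together, and their shares in any difference between the days cannot be told apart. Each replicate was a separate differentiation started on another day, and replicate 1 came from the cell population that was also used for single-cell sequencing. Libraries were depleted of ribosomal RNA and held 38242822, 27561452 and 23879805 counts at day 0 and 34277448, 39628784 and 32931203 counts at day 1. Replicate 3 of day 0 stood apart: mitochondrial ribosomal RNA took 6.23% of its counts, against 1.16% and 1.02% in the other day 0 libraries and 1.12%, 1.01% and 2.36% at day 1, and its 20 most abundant genes took 14.2% of its counts, against 8.57% to 9.94% in the other 5 libraries.

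As background, LIF binds its receptor together with the shared subunit gp130 and activates JAK kinases and the transcription factor STAT3, which maintains naive pluripotency genes. Gsk3 marks beta-catenin for degradation, so its inhibition keeps the Wnt pathway active, while MEK activates ERK, the kinase through which FGF4 drives mESCs out of the naive state. When LIF and 2i are removed, mESCs pass from the naive state through a formative state that resembles the early post-implantation epiblast, and in female cells Xist is then upregulated, and in the end a single X chromosome is silenced.

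The first day brought changes in a large share of the genes tested. At a Benjamini-Hochberg adjusted p under 0.05 in edgeR's quasi-likelihood test, 8860 genes (47.0%) differed between the days. Of these, 4437 (23.5%) were higher and 4423 (23.4%) lower at day 1, and the median log2 fold change of all tested genes was -0.01. Close to 49.3% of the called genes changed by less than 2-fold. With a minimum change of 2-fold, 2593 genes (13.7%) were higher and 1900 (10.1%) lower, so larger increases outnumbered larger decreases. At 32-fold and above the counts were 175 and 64. In 9609 tested genes (50.9%) the 3 libraries of day 1 did not overlap those of day 0. Levels are given throughout as CPM, the counts of a gene per 1000000 counts of its library, scaled by normalization factors from autosomal genes, and are compared between days for the same gene, not between genes. Unless stated otherwise, a gene said to have risen or fallen passed the adjusted p. Counts of calls in a gene list are to be read against the 47.0% of all tested genes that were called. The lists were chosen with earlier results of these data known.

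**Figure D1:**
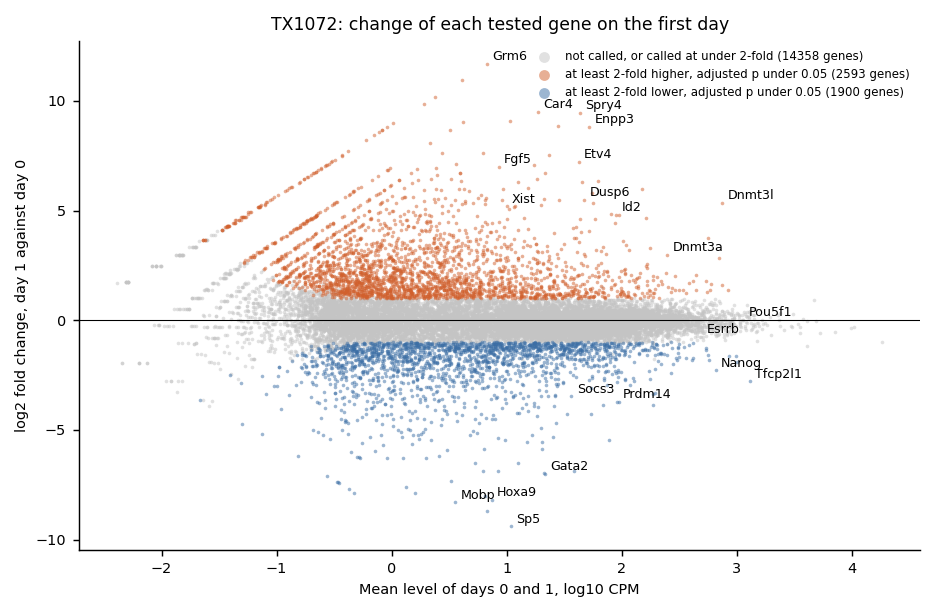
Each point is 1 tested gene of TX1072, with the mean level of days 0 and 1 (log10 CPM) on the horizontal axis and the log2 fold change of day 1 against day 0 on the vertical axis. The 2593 genes at least 2-fold higher (orange) reach larger changes than the 1900 at least 2-fold lower (blue), and 20 tested genes with no count on either day are not drawn; the slanted rows at the left are genes with 0 or few counts on a day, whose fitted values depend on the prior count.

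The day 0 libraries carried the markers of mESCs. Pou5f1, which encodes the core pluripotency factor Oct4, stood at 909.7, 1139 and 1319 CPM at day 0 and at 1048, 1307 and 1083 CPM at day 1, overlapping ranges with no change past the test (log2 fold change 0.03, SE 0.12, adjusted p = 0.865). Its partner Sox2 fell from 302 ± 60.2 to 186 ± 27.3 CPM (mean ± SD, n = 3 libraries; log2 fold change -0.70, adjusted p = 0.0115, and -0.55 with an adjusted p of 0.0583 without replicate 1 of day 0). In bulk RNA, fewer cells of a kind and less RNA per cell cannot be told apart, here or in any level below.

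Most of the naive pluripotency network fell within the day. Of 19 naive factors, 16 fell, 2 rose and 1 did not pass the test, with a median log2 fold change of -1.38 beside -0.01 for all genes. Nanog, the homeodomain factor (ENSMUSG00000012396, chr6:122707489-122714633 in mm10), had 1053, 927 and 1265 CPM at day 0 and 207, 202 and 259 CPM at day 1. The groups did not overlap, and the level was 4.86-fold lower (log2 fold change -2.28, SE 0.17, adjusted p = 5.85e-09). Esrrb, an orphan nuclear receptor that sustains self-renewal (ENSMUSG00000021255, chr12:86361117-86521628), had 585, 656 and 588 CPM and then 322, 393 and 373 CPM. Its groups did not overlap either, but the decrease was only 1.68-fold (log2 fold change -0.75, SE 0.18, adjusted p = 0.00228). Tfcp2l1, a direct target of STAT3 and LIF, went from 2171, 2393 and 2236 to 282, 336 and 369.5 CPM, a 6.88-fold decrease. The steepest decreases of the list were in Dppa3, a chromatin protein of oocytes and naive cells, and in Prdm14, a repressor of FGF signalling and of the de novo DNA methyltransferases. Dppa3 fell from 47.9 ± 7.95 to 3.16 ± 0.898 CPM and Prdm14 from 168 ± 27.5 to 12.8 ± 0.777 CPM. Klf4 and Tbx3 fell by 2.76 and 2.75 on the log2 scale. Zfp42 (Rex1), a widely used reporter of the naive state, moved least among the members called, by -0.49.

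A pair of members of the naive list moved the other way. Nr0b1 (Dax1), an X-linked nuclear receptor, had 94.7, 114 and 123 CPM at day 0 and 262, 280.4 and 253 CPM at day 1 (log2 fold change 1.26, SE 0.14, adjusted p = 5.87e-07). Gbx2, a homeobox gene placed downstream of STAT3, had 3.63, 4.66 and 3.38 and then 28.1, 40.7 and 31.6 CPM (log2 fold change 3.10, SE 0.21, adjusted p = 1.22e-09). In both, every day 1 library lay above every day 0 library. Fgf4, the FGF ligand made by mESCs themselves, had a log2 fold change of 0.28 that did not pass the test (adjusted p = 0.0902), and passed it without replicate 2 of day 1 (0.36, adjusted p = 0.0494).

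Most pluripotency genes that are shared by naive and later states rose. Of 14 such genes, 10 rose, 1 fell and 3 did not pass the test (median log2 fold change 0.80). Utf1, a chromatin-bound pluripotency factor, rose 5.06-fold, and Lin28a, the RNA-binding protein that blocks let-7 maturation, rose 4.51-fold. L1td1, an RNA-binding protein derived from a retrotransposon, had 468, 492 and 449 CPM and then 1240.5, 1096 and 1312 CPM. Dppa2 and Dppa4, a pair of chromatin factors that prime developmental promoters, rose by 0.92 and 1.09 on the log2 scale. Sall4 had a log2 fold change of -0.18 that did not pass the test.

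Most genes of the formative and primed epiblast rose. Of 18 members, 15 rose, 2 fell and 1 did not pass the test, and the median log2 fold change of 2.45 was the highest of all lists examined. Fgf5, the classical marker of the post-implantation epiblast, had 0.190, 0.114 and 0.0451 CPM at day 0 and 21.6, 16.3 and 12.8 CPM at day 1, an increase of 145-fold from a level close to absence (log2 fold change 7.00, SE 0.35, adjusted p = 3.21e-11). Fgf15, a secreted FGF, rose from 1.09 ± 0.497 to 27.2 ± 2.80 CPM. Grhl2, the epithelial factor that opens enhancers of formative cells, went from 21.4, 16.9 and 16.4 to 207, 207 and 186 CPM (log2 fold change 3.45, SE 0.13, adjusted p = 1.13e-12). Sox4 and Sox11, related high-mobility-group factors, rose 8.86-fold and 10.96-fold. The zinc finger gene Zic2 fell by 0.54 on the log2 scale, a call lost without replicate 2 (-0.35) or 3 (-0.50) of day 0 or replicate 3 of day 1 (-0.38), and its relative Zic5 stood at -0.24 without passing the test.

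Of 15 genes known from screens for exit from the naive state, 7 rose, 1 fell and 7 did not pass the test (53.3% called, near the 47.0% of all tested genes; median 0.19), and without replicate 1 of day 1, 4 rose. Foxp1, a forkhead factor, had the largest change of the list. It rose from 1.36, 1.10 and 1.26 CPM to 65.1, 49.6 and 50.8 CPM (log2 fold change 5.46, SE 0.20, adjusted p = 7.75e-13). Lin28b rose by 0.82 and Tfe3, the factor whose nuclear exclusion accompanies exit, by 0.64 on the log2 scale. Tcf7l1, the repressor relieved by Gsk3 inhibition, had -0.01, and Flcn, the folliculin gene that controls Tfe3, had -0.08, neither past the test.

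In the LIF pathway, the transducer gene Stat3 and several of its targets fell. Among 8 components of the receptor and JAK-STAT3, 4 fell, none rose and 4 did not pass the test (median -0.30). The 50% called is near the 47.0% of all tested genes. Stat3 itself (chr11:100885098-100939540) had 81.9, 109.6 and 77.2 CPM at day 0 and 12.9, 14.5 and 13.3 CPM at day 1, 6.60-fold lower (log2 fold change -2.72, SE 0.13, adjusted p = 2.15e-11). Il6st, which encodes gp130, fell from 172 ± 16.2 to 93.9 ± 2.33 CPM. The kinase genes Jak1 and Jak2 fell by 0.38 and 1.04 on the log2 scale, the call of Jak1 being lost without a filter on low counts (-0.32, adjusted p = 0.0602). Lifr, the LIF-specific receptor subunit, overlapped between days, with 77.1, 76.6 and 71.2 CPM and 72.2, 61.7 and 76.0 CPM (log2 fold change -0.10, adjusted p = 0.61).

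Of 15 STAT3 targets, 9 fell, 1 rose and 5 did not pass the test (median -0.97, or -0.64 without replicate 3 of day 0). Socs3, the inhibitor that STAT3 induces against its own receptor, had 65.2, 71.2 and 64.3 CPM at day 0 and 4.73, 7.89 and 5.35 CPM at day 1 (log2 fold change -3.48, SE 0.17, adjusted p = 1.91e-11). Bcl3, a co-regulator of NF-kappaB, had 33.0, 41.8 and 42.6 and then 3.89, 6.21 and 5.05 CPM (log2 fold change -2.95, SE 0.20, adjusted p = 1.56e-09). In both, the lowest day 0 library was several times the highest day 1 library. Junb, an AP-1 subunit, fell from 14.6 ± 5.06 to 4.32 ± 2.09 CPM, and Icam1, an adhesion molecule, from 106 ± 11.6 to 32.1 ± 5.62 CPM. Not every target of the list moved. The kinase gene Pim3 and the inhibitor gene Socs2 had log2 fold changes of 0.12 and 0.22 and did not pass the test. Klf4, Tfcp2l1 and Gbx2, described above, belong to this list as well.

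STAT3 dimers bind the palindrome TTCNNNGAA. Within the 250 bases before the start site, as given by RefSeq for GRCm38.p6, the palindrome was found in 7.02% of 32851 promoters on either strand, or in 8.13% of 27025 genes with a promoter. Among the STAT3 targets it was found in 2 of 14 matched members, Socs3 and Icam1, both of which fell. They are shown because they are the members of the list with a match, with the palindrome in capitals, 5′ to 3′ on the strand of the gene, Socs3 at chr11:117969502-117969530 (minus strand, only 10 bases on each side of the match, since it lies within the gene as GENCODE M21 annotates it) and Icam1 at chr9:21015690-21015939 (plus strand).
Socs3: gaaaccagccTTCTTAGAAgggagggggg
Icam1: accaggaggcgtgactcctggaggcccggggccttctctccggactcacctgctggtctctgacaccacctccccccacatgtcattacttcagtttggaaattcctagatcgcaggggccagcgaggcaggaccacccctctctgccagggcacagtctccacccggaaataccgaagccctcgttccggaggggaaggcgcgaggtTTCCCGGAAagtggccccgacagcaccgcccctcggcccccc
A match in this window is a description of the sequence and not of binding.

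Targets of the Wnt pathway, which inhibition of Gsk3 is known to activate, held the gene with the lowest log2 fold change of all tested genes, Sp5 (-9.40). Of 16 genes, 15 were tested, of which 12 fell, 2 rose and 1 did not pass the test (median -1.22). Sp5, a zinc finger factor directly induced by beta-catenin (ENSMUSG00000075304, chr2:70474923-70477729), had 18.2, 25.8 and 20.8 CPM at day 0 and 0.0292, 0 and 0.0608 CPM at day 1. From 1815 counts over the 3 libraries of day 0 it went to 3 over those of day 1, a decrease of 761-fold (95% interval 260.0 to 3700.0), where the interval covers counting error only. T (Brachyury), a T-box factor of the primitive streak, fell from 9.27, 11.9 and 10.7 to 0.351, 0.223 and 0.335 CPM (log2 fold change -5.13, SE 0.41, adjusted p = 1.16e-08). The caudal homeobox genes Cdx1 and Cdx2 fell 40.4-fold and 100.3-fold. Axin2, the feedback inhibitor most often used as a readout of the pathway, had 45.0, 59.3 and 49.7 CPM and then 26.8, 33.2 and 29.3 CPM. Its decrease of 1.72-fold (log2 fold change -0.78, SE 0.15, adjusted p = 2.42e-04) left it far above absence. The negative regulators Rnf43 and Nkd1 fell by 1.64 and 1.22 on the log2 scale.

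Lef1 and Ccnd1 rose. Lef1, a DNA-binding partner of beta-catenin, had 4.80, 6.98 and 6.26 CPM at day 0 and 52.1, 47.5 and 47.6 CPM at day 1 (log2 fold change 3.04, SE 0.19, adjusted p = 4.31e-10). Ccnd1, which encodes cyclin D1 and is also an ERK target, had 115, 118 and 89.9 and then 341, 338 and 336 CPM (log2 fold change 1.65, SE 0.12, adjusted p = 5.35e-09). Both were separated from day 0 in every library.

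Changes among the Wnt components were smaller. Of 13, 7 fell, none rose and 6 did not pass the test (median -0.48). The 53.8% called is near the 47.0% of all tested genes. Gsk3b, the kinase that CT-99021 inhibits, fell from 63.0 ± 8.06 to 24.7 ± 2.94 CPM, and the co-receptors Lrp5 and Lrp6 fell by 1.02 and 0.77 on the log2 scale. Ctnnb1, which encodes beta-catenin, had 1180.5, 1110.3 and 985 CPM and 1060.0, 992 and 1020.4 CPM, with overlapping groups and no change past the test (log2 fold change -0.09, adjusted p = 0.487).

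The TCF and LEF motif CTTTGAT, or its reverse complement ATCAAAG, stood in the 250 bases before the start of 3.21% of promoters. By gene, the share was 3.72% of those with a promoter, and 1 of 11 matched Wnt targets, Sp5, had the motif in its promoter. That promoter (chr2:70474673-70474922, plus strand) is shown with the match in capitals, since it belongs to the gene with the largest decrease.
Sp5: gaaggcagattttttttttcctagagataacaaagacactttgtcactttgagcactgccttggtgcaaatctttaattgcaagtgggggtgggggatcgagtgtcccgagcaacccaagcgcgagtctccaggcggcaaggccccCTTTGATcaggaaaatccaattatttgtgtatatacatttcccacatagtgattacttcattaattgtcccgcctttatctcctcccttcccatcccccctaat

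Hox genes, which pattern the body axis and which Cdx factors regulate in the embryo, were at low levels at day 0, and most of those tested fell further. Of 39 Hox genes, 26 were tested, of which 22 fell, 1 rose and 3 did not pass the test (median -3.47, the lowest of all lists). The filter on low counts can be passed through a single day, and a gene that passes only through day 0 can hardly do other than fall. Hoxa9, for example, had means of 0.00908, 0.0119 and 0 CPM at days 2, 3 and 4. The list's median was -2.52 without a filter and -4.43 with at least 1 CPM in 3 libraries. The summed level of the list was 92.4, 109.5 and 108 CPM at day 0 and 8.74, 9.25 and 9.77 CPM at day 1. Hoxa9, with the most counts of them, went from 15.8, 15.4 and 13.1 to 0.0292, 0.0495 and 0.0608 CPM (log2 fold change -8.19, SE 0.35, adjusted p = 3.19e-11). Hoxa10 fell from 14.1 ± 1.12 to 0.622 ± 0.148 CPM and Hoxa7 from 12.7 ± 2.75 to 0.582 ± 0.129 CPM. In the HoxC cluster, Hoxc8 had 261 counts at day 0 and 1 at day 1, a decrease of 328-fold (95% interval 58.4 to 13000.0), and was named for its size after its values were seen. The gene that rose, Hoxb1, had 0 counts at day 0 and 10 at day 1, at least 2.65-fold higher against a floor of 3 counts over the group, a call lost without replicate 1 of day 0 or replicate 2 of day 1. Neighbouring Hox genes share antisense transcripts, and the use of strand in the counting is not given in the sources used here.

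Among the feedback inhibitors and targets of ERK, more genes rose than fell, and some of them rose from near absence. Of 22 ERK feedback inhibitors and targets, 12 rose, 2 fell and 8 did not pass the test (median 0.90). Spry4, a Sprouty inhibitor of receptor tyrosine kinase signalling (ENSMUSG00000024427, chr18:38586247-38601415), had 0.0271, 0.228 and 0.135 CPM at day 0 and 62.3, 105 and 91.1 CPM at day 1 (log2 fold change 9.46, SE 0.38, adjusted p = 2.05e-12). Dusp6, the phosphatase that inactivates ERK in the cytoplasm, had 1.19, 2.69 and 2.48 and then 86.9, 97.7 and 92.7 CPM (log2 fold change 5.49, SE 0.21, adjusted p = 1.83e-12). Etv4, an ETS factor downstream of FGF, had 0.190, 0.834 and 0.766 and then 68.9, 98.1 and 84.7 CPM (log2 fold change 7.24, SE 0.29, adjusted p = 2.45e-12). All 3 separated the days by more than an order of magnitude. Dusp4, a nuclear ERK phosphatase, rose 38.4-fold and Etv1, another ETS factor, 6.02-fold. Myc, which ERK both induces and stabilizes, had 4.26, 12.4 and 8.61 CPM and then 55.4, 90.4 and 71.4 CPM (log2 fold change 3.12, SE 0.28, adjusted p = 6.09e-08).

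Some relatives within these families, Etv5 and Spry2 among them, did not rise. Etv5, an ETS factor of the same subfamily as Etv4, had 328, 391 and 306 CPM at day 0 and 303, 307 and 302 CPM at day 1 (log2 fold change -0.17, adjusted p = 0.248). Spry2 fell from 80.1 ± 7.49 to 41.5 ± 3.50 CPM (log2 fold change -0.95, SE 0.13, adjusted p = 1.25e-05). The immediate early gene Fos fell by 1.74 on the log2 scale, while Egr1 had -1.58 (adjusted p = 0.057) and Ier2 0.16, neither past the test. Egr1 passed without replicate 1 (-2.15) or replicate 2 (-1.86) of day 0. Spred1 and Spred3, inhibitors of Ras activation, rose by 1.52 and 1.20.

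**Figure D2:**
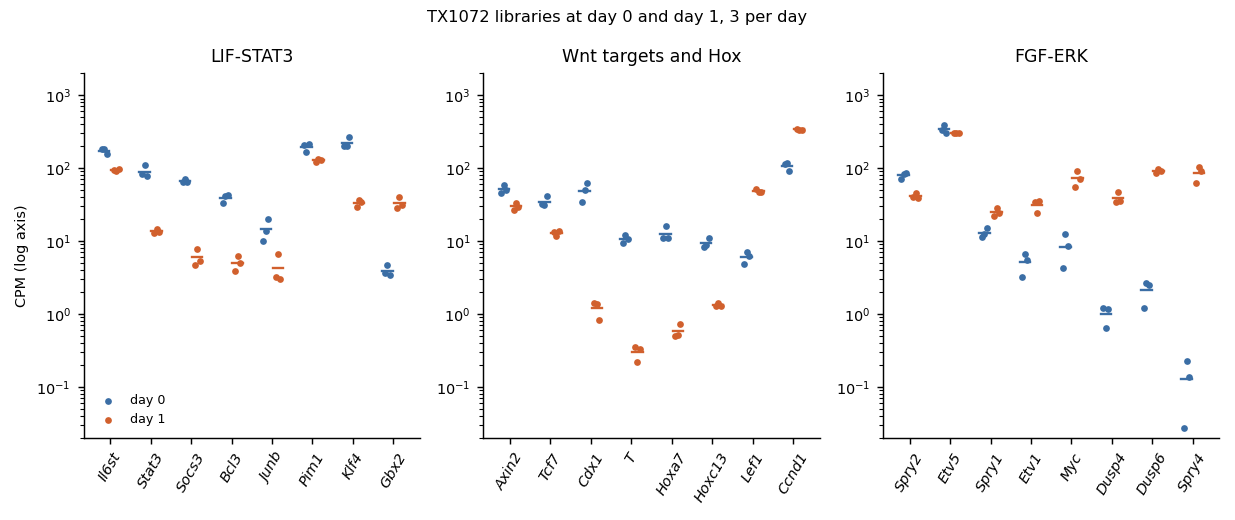
Levels in each TX1072 library (points, CPM on a log axis, lines at the mean of 3) at day 0 (blue) and day 1 (orange) for genes of the LIF-STAT3, Wnt and FGF-ERK branches. Socs3, Bcl3, Cdx1 and T lie lower at day 1, Dusp6 and Spry4 higher, and Etv5 overlaps.

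Upstream of ERK, ligands, receptors and kinases held calls in both directions. Of 8 FGF ligands and receptors, 4 rose, 1 fell and 3 did not pass the test (median 1.13). Fgfr2 rose 1.95-fold and Fgfr3 fell 2.11-fold, while Fgfr1, the main FGF receptor of mESCs, had 56.7, 88.2 and 77.4 and 57.4, 78.6 and 64.5 CPM without a change past the test (adjusted p = 0.471). Of 16 components of the Ras, Raf, MEK and ERK cascade, 4 rose, 2 fell and 10 did not pass the test (37.5% called; median 0.03), and without replicate 1 of day 0, 2 rose. The kinase gene Braf rose from 58.7 ± 9.60 to 135 ± 20.2 CPM. Map2k1, which encodes MEK1, a target of PD0325901, fell by 0.52 on the log2 scale.

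De novo DNA methyltransferases rose on the first day. Of 6 methylation writers, 4 rose and 2 did not pass the test (median 1.58). Dnmt3a (ENSMUSG00000020661, chr12:3806007-3914443) had 58.9, 52.0 and 56.2 CPM at day 0 and 473, 422 and 419 CPM at day 1 (log2 fold change 2.98, SE 0.10, adjusted p = 4.16e-13). Dnmt3b rose from 185 ± 34.9 to 638 ± 15.5 CPM (log2 fold change 1.79, SE 0.13, adjusted p = 3.68e-09). Dnmt3l, the cofactor without catalytic activity, had 29.0, 44.9 and 33.9 and then 1353, 1603 and 1420.1 CPM, 40.6-fold higher (log2 fold change 5.34, SE 0.26, adjusted p = 2.67e-11). The maintenance genes behaved otherwise: Dnmt1 had 450.0 ± 74.9 and 499.5 ± 37.1 CPM (adjusted p = 0.304), and Uhrf1, which recruits it, 950.4 ± 98.1 and 852 ± 56.3 CPM (adjusted p = 0.272). Of 4 demethylation enzymes, Tet2 fell from 435 ± 31.0 to 182 ± 12.7 CPM, Tdg rose by 0.33 on the log2 scale, a call lost without replicate 1 of day 1, and Tet1 and Tet3 did not pass the test. Dnmt3a and Dnmt3b are also counted among the formative genes.

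In the TGF-beta family, the Nodal and BMP branches held changes in both directions. Of 14 Nodal pathway genes, 3 rose, 8 fell and 3 did not pass the test (median -0.43). Nodal had 74.6 ± 6.01 and 86.9 ± 6.56 CPM (adjusted p = 0.126), and its co-receptor Tdgf1 (Cripto) rose 1.65-fold. Lefty2, a secreted Nodal inhibitor and Nodal target, had 351, 362 and 339.6 CPM at day 0 and 35.3, 17.2 and 18.95 CPM at day 1 (log2 fold change -3.88, SE 0.38, adjusted p = 1.76e-07). Its neighbour and close relative Lefty1 fell less, with 31.1, 43.4 and 28.9 and then 26.6, 9.82 and 5.42 CPM (log2 fold change -1.30, SE 0.45, adjusted p = 0.0231), and the spread among its day 1 libraries was almost as large as their mean. Its call was lost without replicate 2 of day 0 (-1.11), replicate 2 of day 1 (-1.10) or replicate 3 of day 1 (-0.88), and with DESeq2 in place of edgeR (-1.28, adjusted p = 0.0536). Reads that align equally well to both of these similar genes are not among the uniquely aligned reads counted. Acvr1b, a type I receptor for Nodal, and Furin, a convertase that matures it, fell by 1.52 and 2.19 on the log2 scale. Foxh1, the DNA-binding partner of Smad2, rose from 21.6 ± 3.68 to 88.9 ± 8.34 CPM.

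Among 18 BMP pathway and Id genes, 16 were tested, of which 4 rose, 8 fell and 4 did not pass the test (median -0.41). Id1 had 1.95, 3.83 and 3.70 CPM at day 0 and 46.7, 55.9 and 42.6 CPM at day 1 (log2 fold change 3.97, SE 0.27, adjusted p = 1.58e-09), and Id2 had 6.07, 6.07 and 6.17 and then 165, 165 and 184 CPM (log2 fold change 4.81, SE 0.18, adjusted p = 9.92e-13). Both encode dominant-negative helix-loop-helix proteins that BMP induces. Id4 fell 4.50-fold, and Id3 had 0.70 without passing the test (adjusted p = 0.0533), though it passed with the replicate number as a block (0.67, adjusted p = 0.0458), without replicate 2 of day 0 (0.98) and without replicate 3 of day 1 (0.95). The ligand Bmp4 rose from 5.38 ± 1.74 to 40.7 ± 8.58 CPM, whereas Bmp7 fell from 10.1 ± 2.95 to 0.787 ± 0.211 CPM. Smad7, an inhibitory Smad shared by both branches, fell 3.57-fold.

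Most genes of the X-inactivation center rose. Of 10 genes of that region, 8 rose and 2 did not pass the test (median 1.69, or 1.35 with the genes at 0 at day 0 set to their floor). With the replicate number as a block, all 10 were called higher. Xist (ENSMUSG00000086503, chrX:103460366-103483254) had 11, 15 and 18 counts at day 0 and 841, 466 and 725 at day 1, or 0.298, 0.569 and 0.811 and then 24.6, 11.5 and 22.1 CPM (log2 fold change 5.19, SE 0.38, adjusted p = 3.97e-09). The days did not overlap, though the day 1 libraries differed from each other by more than 2-fold. Tsix, the antisense transcript across Xist, had 9.08, 11.4 and 11.9 and then 17.1, 15.5 and 17.9 CPM (log2 fold change 0.64, SE 0.19, adjusted p = 0.0105), a call lost without replicate 1 of day 0 (0.53, adjusted p = 0.0532). Since the 2 genes overlap, their reads can be told apart only by strand. Ftx, a noncoding neighbour of Xist, rose 3.07-fold. Jpx, a noncoding activator of Xist, had 0 counts in all 3 day 0 libraries and 60 over those of day 1, at least 15.9-fold higher. Rlim (Rnf12), the ubiquitin ligase that relieves repression of Xist, had 315, 247 and 269 and then 431, 262 and 405 CPM and did not pass the test (log2 fold change 0.40, adjusted p = 0.0794). With the replicate number as a block it did (0.39, adjusted p = 0.0319), as it did without replicate 2 of day 1 (0.59, adjusted p = 0.00698).

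Factors that act with Xist in silencing were nearly all without a change past the test. Of 12, 1 rose, 1 fell and 10 did not pass (median -0.12), and without replicate 2 of day 1, 3 rose. Spen, the repressor that binds the Xist A-repeat, went from 45.4 ± 10.0 to 70.1 ± 5.19 CPM (log2 fold change 0.63, SE 0.16, adjusted p = 0.00335), and Wtap, a subunit of the m6A writer, fell 2.19-fold. Across the X chromosome, 220 of 736 tested genes were higher and 154 lower (50.8% called, median log2 fold change 0.10), beside 4169 and 4179 of 17857 autosomal genes (46.7% called, median -0.01).

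Of 27 Polycomb genes, 6 rose, 9 fell and 12 did not pass the test, and the 55.6% called is near the 47.0% of all tested genes (median -0.16). Phf19, an accessory subunit of PRC2, had 7.05, 4.40 and 5.36 CPM at day 0 and 47.8, 60.1 and 52.6 CPM at day 1 (log2 fold change 3.24, SE 0.19, adjusted p = 2.80e-10). Kdm2b, which brings a variant PRC1 to CpG islands, rose 2.43-fold. Cbx8, a chromobox subunit of PRC1, fell by 1.81 on the log2 scale. The catalytic subunit gene Ezh2 had 0.02 and did not pass the test.

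Most of the germline genes listed, many of which are silenced by promoter methylation in somatic cells, rose. Of 17, 13 rose, 1 fell and 3 did not pass the test (median 1.89). Piwil2, which encodes a Piwi protein of the piRNA pathway, had 9.22, 10.5 and 5.95 CPM and then 59.2, 48.5 and 57.1 CPM (log2 fold change 2.67, SE 0.16, adjusted p = 4.04e-10). Mael and Mov10l1, of the same pathway, rose 6.69-fold and 4.03-fold. Sycp1, of the synaptonemal complex, rose as well, but its day 1 libraries ranged widely, at 32.7, 6.48 and 27.1 CPM against 3.82, 1.71 and 3.79 CPM. Tex19.1, with the most counts of the list, rose 2.71-fold, and Dazl had -0.28 without passing the test. Genes of the rare state that resembles early embryos were at or near 0. Of 18, 13 were tested and none was called, and their summed level was at most 0.351 CPM in any library, so that no change was detectable at this depth.

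Most listed genes of the actin cytoskeleton and of the serum response rose. Of 21, 16 rose, none fell and 5 did not pass the test (median 1.06). Myl9, a regulatory light chain of myosin, had 0.271, 0.493 and 0.406 CPM at day 0 and 5.52, 7.10 and 5.08 CPM at day 1 (log2 fold change 3.95, SE 0.21, adjusted p = 8.62e-11). Cnn2, the actin-binding calponin, had 7.81, 10.8 and 8.43 and then 35.3, 43.5 and 36.2 CPM (log2 fold change 2.09, SE 0.15, adjusted p = 3.87e-09). Flna, the X-linked gene of filamin A, rose from 362 ± 72.2 to 1118 ± 159 CPM, and Thbs1, a matrix protein, 9.80-fold. Ccn1 (Cyr61), a matrix protein induced by YAP and SRF, rose 3.92-fold. Actb, with the most counts of the list, had 2796, 3534 and 3334 and then 5342, 7097 and 5799.6 CPM. Srf, which encodes serum response factor, had -0.01 and did not pass the test. These cells had also been replated on fibronectin, in less serum, at this time.

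Serum response factor binds the CArG box, which stood in the 250 bases before the start of 1.47% of promoters, or in 1.62% of genes with a promoter. Of 15 matched members of the list, 5 had it: Actg1, Cnn2, Myl9, Srf and Vcl. The promoters of Myl9 (chr2:156775214-156775419, plus strand) and Cnn2 (chr10:79988350-79988583, plus strand) are shown up to the annotated start of the gene, with the CArG box in capitals, since they are the members with a match that rose most.
Myl9: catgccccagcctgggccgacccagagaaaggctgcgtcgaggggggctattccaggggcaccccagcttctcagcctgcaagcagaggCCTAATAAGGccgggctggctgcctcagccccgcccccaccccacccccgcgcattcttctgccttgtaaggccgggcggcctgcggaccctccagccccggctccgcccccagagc
Cnn2: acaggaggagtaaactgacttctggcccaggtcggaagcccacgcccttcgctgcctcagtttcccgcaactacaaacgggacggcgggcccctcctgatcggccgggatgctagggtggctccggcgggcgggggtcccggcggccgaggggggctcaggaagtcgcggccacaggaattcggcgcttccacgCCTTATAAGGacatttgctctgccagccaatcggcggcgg

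Of 16 adhesion genes, 4 rose, 5 fell and 7 did not pass the test, and the 56.2% called is near the 47.0% of all tested genes (median -0.07). Itga5, the fibronectin receptor subunit, had 7.54, 6.45 and 8.79 CPM on gelatin at day 0 and 33.1, 42.6 and 39.2 CPM on fibronectin at day 1 (log2 fold change 2.34, SE 0.18, adjusted p = 8.60e-09). Itgav and Itgb3, which form another receptor of matrix proteins, fell by 1.10 and 0.79 on the log2 scale, and Itgb1, the partner of Itga5, had 0.00. Cdh2 (N-cadherin) fell 3.95-fold, and the epithelial gene Epcam rose 1.75-fold.

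Of 23 glycolysis genes, 7 rose, 6 fell and 10 did not pass the test (56.5% called, near the 47.0% of all tested genes; median 0.05). Slc16a3, which exports lactate, rose from 47.7 ± 9.14 to 280.4 ± 30.4 CPM, and Pdk1, the kinase that shuts pyruvate dehydrogenase, from 38.8 ± 2.80 to 175 ± 12.4 CPM. Hk1 fell 3.39-fold and the glucose transporter gene Slc2a3 by 1.64 on the log2 scale. Pgam1 and Pfkm had log2 fold changes of -0.02 and 0.05. Of 30 nuclear genes of the respiratory chain, 12 fell, none rose and 18 did not pass the test (40% called, median -0.25). Without replicate 3 of day 1, 6 fell. The largest decrease, of Cox5a, was 1.68-fold. Of 13 mitochondrially encoded genes, 8 were tested and 1, mt-Co1, fell, from 9229, 6765 and 9162 to 5289, 4620.0 and 7359.9 CPM (-0.54), a call lost without replicate 1 of either day (-0.47 and -0.48) or replicate 2 of day 1 (-0.41). With the replicate number as a block 5 of the 8 fell, and without replicate 3 of day 0, the library rich in mitochondrial ribosomal RNA, the list's median moved from -0.81 to -0.11. Of 25 cholesterol synthesis genes, 1 rose, 7 fell and 17 did not pass the test (32% called, median -0.19). Of the list, 3 fell without replicate 2 of day 0 or replicate 3 of day 1, and 4 without replicate 1 of day 1.

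Many cytosolic ribosomal protein genes fell by a small amount. Of 75, 42 fell, none rose and 33 did not pass the test (median -0.37), a share of 56% beside the 23.4% lower among all tested genes. No member changed by 2-fold, and the largest decrease, of Rpl31, was 1.66-fold. Their summed level was 62430, 65160 and 65640 CPM at day 0 and 49370, 55490 and 45590 CPM at day 1. Without replicate 3 of day 1, 19 fell. Many of these genes have processed pseudogenes, and reads that align equally well to several copies are not among the uniquely aligned reads counted.

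Genes induced by amino acid shortage and by stress of the endoplasmic reticulum were partly lower. Of 20, 3 rose, 9 fell and 8 did not pass the test (median -0.42), and without replicate 1 of either day, 4 fell. Asns, asparagine synthetase, had 1694, 1669 and 1413 CPM at day 0 and 397, 458 and 410.3 CPM at day 1 (log2 fold change -1.92, SE 0.15, adjusted p = 1.01e-08). Atf3 fell by 1.61 on the log2 scale and Chac1 by 1.57, the latter call being lost without replicate 1 of day 0 (-0.97) or of day 1 (-1.29), while Phgdh had -0.02 and Mthfd2 0.04. Of 13 p53 targets, 2 rose, 3 fell and 8 did not pass the test (38.5% called, median 0.02). Cdkn1a, the p21 gene, fell from 137 ± 34.0 to 39.8 ± 5.31 CPM, Phlda3 fell by 1.36 on the log2 scale, and Ccng1 had -0.04.

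Regulators of the G1 phase held more calls than general proliferation genes. Of 19 G1 cyclins, kinases and inhibitors, 5 rose, 9 fell and 5 did not pass the test (median -0.05). Ccnd2, which encodes cyclin D2, had 0.136, 0.645 and 0.225 CPM at day 0 and 13.8, 10.5 and 13.9 CPM at day 1 (log2 fold change 5.29, SE 0.34, adjusted p = 7.68e-10). Ccne1, the cyclin E1 gene, rose 1.88-fold. Among inhibitors, the imprinted gene Cdkn1c (p57) rose 14.9-fold and Cdkn1b (p27) fell 2.45-fold. Of 18 proliferation genes, 2 fell, Mcm4 by 0.28 and Aurka by 0.25 on the log2 scale, and 16 did not pass the test (median -0.14). Mki67 had -0.02. Neither of these calls held with DESeq2's size factors in the same test, nor without replicate 1 or 2 of day 0 or replicate 1 or 3 of day 1.

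**Figure D3:**
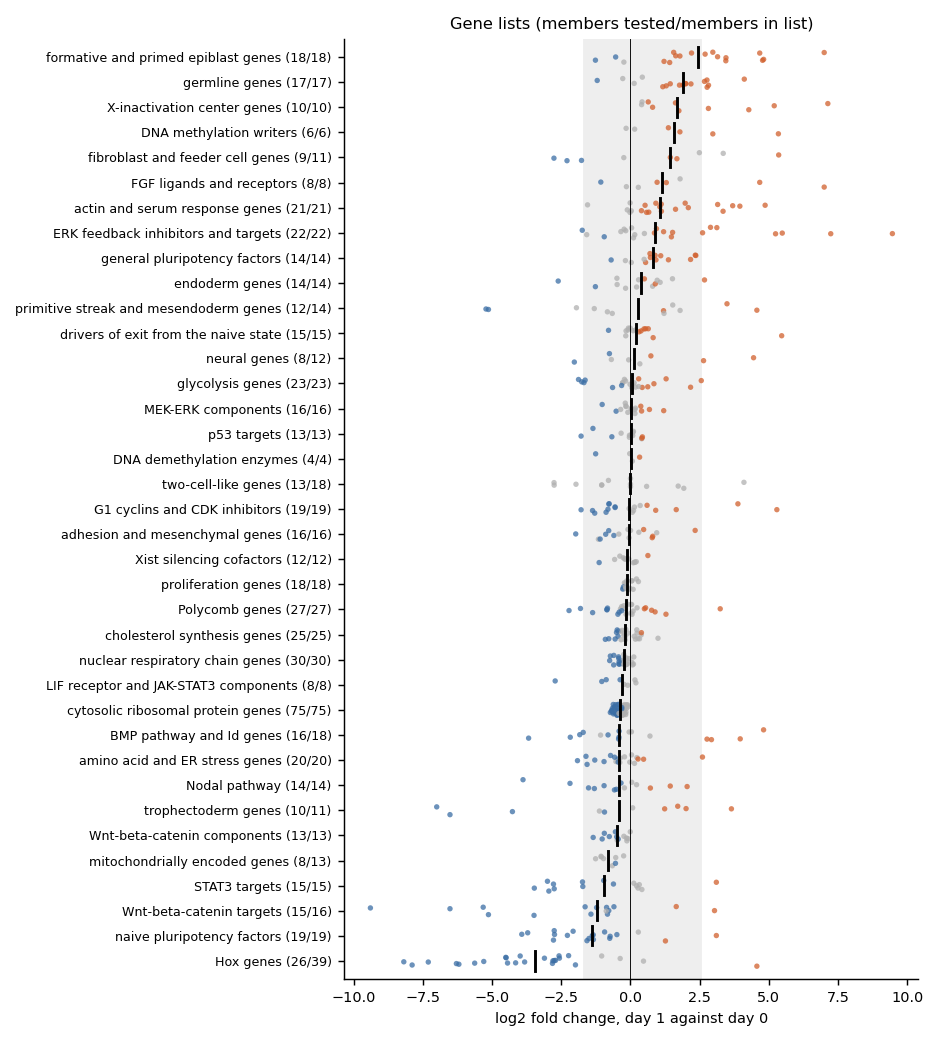
Log2 fold changes of day 1 against day 0 (horizontal axis) for the tested members of each gene list, 1 point a gene, orange if higher and blue if lower at an adjusted p under 0.05, grey if not called. Black bars are list medians, from 2.45 for formative genes to -3.47 for Hox genes, and the grey band runs from the 5th to the 95th percentile of all tested genes, -1.69 to 2.56.

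Markers of other cell types were low or moved in both directions. Of 14 endoderm genes, 3 rose, 2 fell and 9 did not pass the test (35.7% called, median 0.40). Lama1, a laminin of the basement membrane, fell from 213 ± 39.3 to 34.9 ± 4.66 CPM, and the member with the most counts, Sparc, had 341, 410.0 and 418 and 302, 389 and 342 CPM. The endoderm factor Sox17, of low level, had 0.382 ± 0.112 and 0.653 ± 0.341 CPM (adjusted p = 0.216). Of 12 neural genes, 8 were tested, of which 3 rose, 2 fell and 3 did not pass the test (median 0.14, or -0.40 and 0.31 without replicates 1 and 2 of day 0 and 0.09 and -0.04 without replicates 1 and 2 of day 1). Olig2 fell 4.09-fold, and Tubb3, a neuronal tubulin, overlapped between days (log2 fold change 0.34, adjusted p = 0.216) but was called without replicate 2 of day 0 (0.75). Of 14 primitive streak and mesendoderm genes, 12 were tested, of which 3 rose and 2 fell, and without replicate 2 of day 0, 5 rose. The list's median of 0.27 was unstable, at -0.64 with DESeq2, 1.22 without a filter on low counts, 0.79, 1.04 and 1.09 without replicates 1, 2 and 3 of day 0, and 1.23 without replicate 3 of day 1. T fell, as described, whereas Eomes, a T-box factor of the same tissue, had 2.28, 3.56 and 2.97 CPM at day 0 and 32.3, 34.7 and 31.0 CPM at day 1 (log2 fold change 3.49, SE 0.23, adjusted p = 1.17e-09). The summed level of the list was 16.3, 23.7 and 20.6 CPM at day 0 and 38.2, 41.15 and 36.5 CPM at day 1, and Eomes had the most counts of the list over both days.

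Of 10 tested trophectoderm genes, 4 rose, 4 fell and 2 did not pass the test. Their median of -0.43 depended on single libraries, at -0.28 without replicate 1 and -0.13 without replicate 3 of day 0, and at -0.10 without replicate 1 and -0.19 without replicate 2 of day 1. Gata2 fell from 31.4, 44.8 and 50.5 to 0.351, 0.346 and 0.274 CPM (log2 fold change -7.00, SE 0.27, adjusted p = 1.83e-12). Tfap2c, which is also active in naive pluripotent cells, fell 19.3-fold. The keratin genes Krt18 and Krt19 rose 4.06-fold and 3.22-fold. Of 11 fibroblast and feeder cell genes, 9 were tested, of which 3 rose, 3 fell and 3 did not pass the test (median 1.44, or 0 with genes at 0 on a day set to their floor and -0.16 with only the 6 libraries of both days). Thy1, the member with the most counts, rose 3.19-fold, and the collagen gene Col1a1 fell from 8.07 ± 1.39 to 1.64 ± 0.212 CPM. Dpt was at 0 in all 6 libraries, and the summed level of the list, 24.7, 30.2 and 33.8 CPM at day 0 and 29.8, 30.5 and 28.1 CPM at day 1, overlapped between the days. Lists share some genes, such as T, Cdx2, Ccnd1, Cdkn1a, Hoxb1 and Fgf5, which are counted in each.

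The largest increases were in genes that the lists mostly do not hold. Among genes called, with days that did not overlap and a mean of at least 100 counts, the 15 steepest increases started from under 1 CPM. Grm6, a glutamate receptor, had 0 counts in all 3 day 0 libraries and 11.4, 15.3 and 13.4 CPM at day 1, at least 384-fold higher against a floor of 3 counts over the group. Ccdc194 was likewise at 0 and then at 7.60, 9.59 and 7.09 CPM, at least 233-fold higher. Car4, a membrane-bound carbonic anhydrase, went from 0.0271, 0.114 and 0 to 35.2, 39.7 and 36.4 CPM (log2 fold change 9.51, SE 0.30, adjusted p = 1.77e-13). Enpp3, an ectonucleotide pyrophosphatase, went from 0.190, 0.114 and 0.406 to 109, 104 and 97.1 CPM (log2 fold change 8.82, SE 0.21, adjusted p = 5.95e-15). Its relative Enpp2 (autotaxin), which makes lysophosphatidic acid, rose from 3 counts to 2259, by 598-fold (95% interval 204 to 2900.0). Col6a5, a collagen, rose 184-fold, and Radx, which acts at replication forks, 130.2-fold. Esrp1, a splicing regulator of epithelial cells, rose by 8.85 on the log2 scale. Spry4, Etv4 and Fgf5 were also among the 15.

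The 15 steepest decreases included Sp5, Hoxa9, Gata2 and Cdx2. Serpina3i, a serine protease inhibitor gene in a cluster of near-identical copies, had 12.5, 16.8 and 10.8 CPM at day 0 and 3 counts at day 1. Reads that align equally well to several of these copies are not among those counted. Mobp, a gene of myelin, fell from 601 counts to 2, by 378-fold (95% interval 104 to 3130.0). The short-chain fatty acid receptor gene Ffar2 fell from 10.98, 15.2 and 12.4 to 0.0584, 0.0247 and 0.0608 CPM, and its neighbour Ffar3 had a log2 fold change of -6.98. Spic, an ETS factor of naive mESCs and macrophages, had 66.5, 91.0 and 72.6 CPM at day 0 and 0.730, 0.569 and 0.639 CPM at day 1 (log2 fold change -6.89, SE 0.28, adjusted p = 2.85e-12). Nkx1-2, a homeobox gene of the caudal epiblast, fell 119-fold.

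The same comparison in the derived lines used other libraries. TXdXicB6 and TXdXicCast are 1 clone each, with 3 libraries per day, made with another ribosomal depletion kit and read length, and the day 0 RNA of TXdXicCast was degraded, for which its fragmentation was adjusted. Of 18382 genes tested in both, TXdXicB6 shared 3357 of the 4415 genes higher in TX1072, which is 76% of those and 77.4% of its own, and 3250 of the 4378 lower, 74.2% and 74.3%. Calls in the opposite direction numbered 12 and 4. In TXdXicB6 45.8% of genes were called, 22.6% higher and 23.1% lower. TXdXicCast, with 58.7% called, 29.4% higher and 29.3% lower, shared 72.5% of the higher and 72.5% of the lower genes of TX1072, which were 56.7% and 57.1% of its own, with 161 and 185 called in the opposite direction.

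All 30 of the genes with the steepest changes moved in the same direction in both lines. Sp5 changed by -9.40 in TX1072, -8.91 in TXdXicB6 and -9.68 in TXdXicCast on the log2 scale, and Spry4 by 9.46, 8.42 and 8.20. Nanog fell in each, with log2 fold changes of -2.28, -1.37 and -1.71, and Dnmt3a rose by 2.98, 2.43 and 2.00. Medians of some lists were closer to 0 or of the other sign in the deletion lines, and others were not. In the same order of lines, formative genes had 2.45, 2.45 and 2.32, and STAT3 targets -0.97, -0.35 and -0.41. Methylation writers had 1.58, 0.74 and 0.43, cholesterol synthesis genes -0.19, 0.04 and 0.11, and mitochondrially encoded genes -0.81, 0.35 and 3.01. These lists were picked after their values were seen. Xist, of which a single allele remained in each line, had 0.245, 0.808 and 0.972 CPM at day 0 and 7.90, 15.3 and 23.8 CPM at day 1 in TXdXicB6. In TXdXicCast it had 0.468, 1.02 and 0.529 CPM and then 18.96, 22.8 and 38.8 CPM. Tsix overlapped between the days in both lines. It had 5.1, 9.6 and 8.5 and then 5.5, 9.3 and 6.7 CPM in TXdXicB6. In TXdXicCast it had 7.1, 8.2 and 6.8 and then 8.3, 6.0 and 6.3 CPM. Rlim had 197.5, 247.1 and 325 and then 322.8, 374.6 and 512.3 CPM in TXdXicB6. In TXdXicCast it had 186.7, 256.1 and 210.3 and then 403.8, 466.5 and 479.5 CPM, without overlap. Levels were scaled within each table and are not compared across them.

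**Figure D4:**
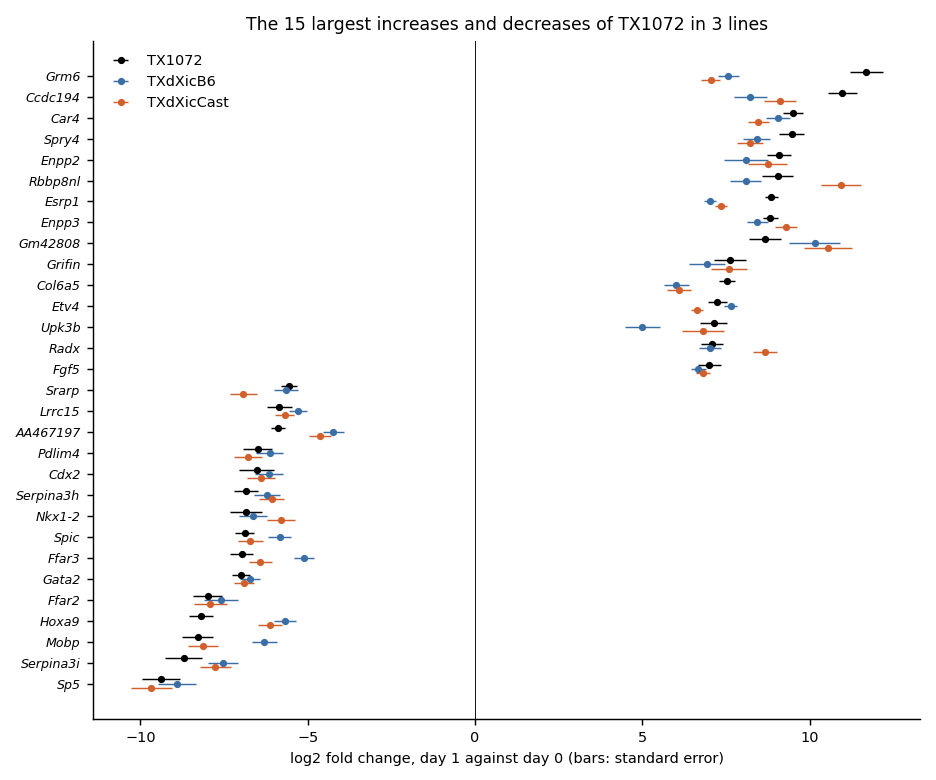
Log2 fold changes of day 1 against day 0 (horizontal axis, points with standard errors, 3 libraries per day) of the 15 steepest increases and decreases of TX1072 in that line (black), TXdXicB6 (blue) and TXdXicCast (orange). All lie on the same side of 0 in the 3 lines. Grm6 and Ccdc194 in TX1072, Gm42808 in both deletion lines and Rbbp8nl in TXdXicCast had 0 counts at day 0. Their fitted values there depend on the prior count.

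The later days place the first day within the time course. Contrasts between the days share libraries, so only levels and counts are given side by side. Between days 1 and 2, 7412 genes (39.3%) were called, and between days 0 and 4, 11263 (59.7%). Some genes were highest at day 1. Gbx2 had means of 3.89, 33.5, 3.24, 1.35 and 0.564 CPM over days 0 to 4, Bmp4 5.38, 40.7, 7.58, 6.12 and 10.0 CPM, and Nr0b1 111, 265, 33.7, 8.11 and 3.95 CPM. Others had only begun. Xist had means of 0.559, 19.4 and 186 CPM over days 0 to 2, Fgf5 0.116, 16.9 and 44.8 CPM, and Dnmt3a 55.7, 438 and 1127 CPM. Among those that fell, Nanog stood at 55.0 CPM at day 2 and 222 CPM at day 4. T stood at 0.572 CPM at day 2 and 116 CPM at day 4, above its day 0 mean of 10.6 CPM. Sp5 had 0.0222, 0.734 and 14.7 CPM at days 2, 3 and 4.

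**Figure D5:**
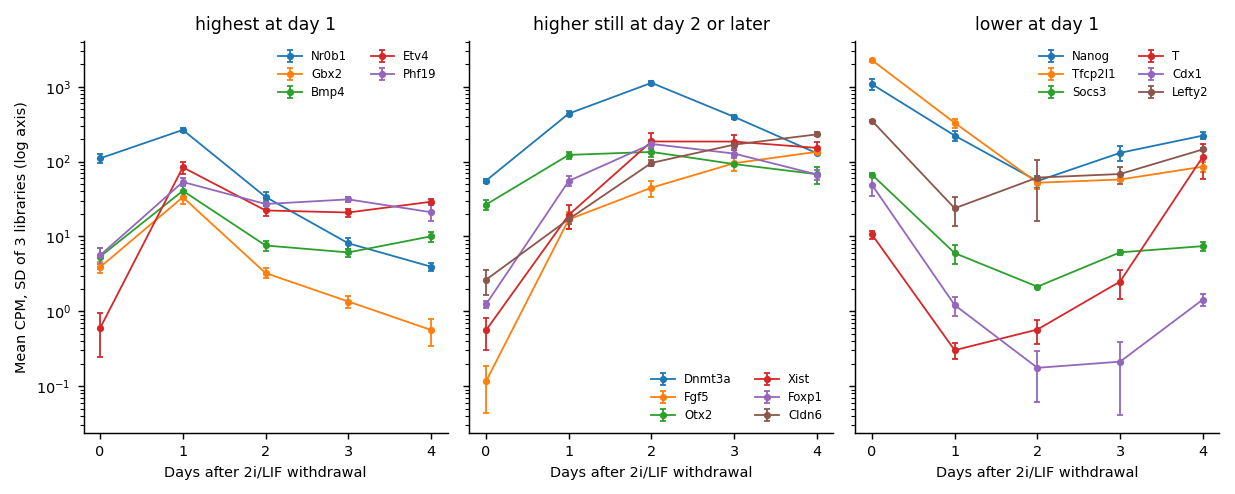
Mean levels (CPM on a log axis, bars SD of 3 libraries) of TX1072 over days 0 to 4 after 2i/LIF withdrawal, for genes chosen after their values were seen and grouped by their course. Gbx2, Bmp4 and Nr0b1 are highest at day 1, Xist and Fgf5 rise on after it, and T falls at day 1 and is above its day 0 level at day 4.

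Allelic counts were examined for the genes that had them. Reads over SNPs between B6 and Cast gave 18.1% to 20.3% of the counts of each library. Of 1898 genes changed by at least 2-fold and with at least 50 counts on each allele over both days, 1878 changed on both alleles in the direction of the total, and 1408 by at least 2-fold on both. These 1898 are part of the 4493 genes called at 2-fold, and since the minimum leaves out genes with few counts on either allele, their share is not that of all such genes. The genes were chosen by the change of their total, and allelic reads come from the same libraries. Agreement of the alleles with the total is therefore partly built in. Nanog fell by 2.29 on the B6 allele and by 2.26 on the Cast allele on the log2 scale.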

How the data were processed

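Bulk RNA of TX1072 cells was sequenced at days 0 to 4 with 3 libraries per day (TruSeq Stranded Total RNA, paired reads), and that of TXdXicB6 and TXdXicCast likewise with another kit (KAPA RNA HyperPrep with RiboErase). For the deposited counts, the authors aligned reads with STAR (version 2.5.2b) to mm10, masked at SNPs between B6 and Cast, assigned alleles with SNPsplit, and counted uniquely aligned reads per gene with featureCounts. The deposited tables hold raw counts of reads per gene, in all and for each allele. The single-cell tables and the other deposited files were not used here.

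From the counts, a table of 52016 genes without the 92 ERCC rows, all of which were at 0, was filtered with edgeR's filterByExpr and tested with edgeR 4.0.16 (R 4.3.3), using TMM factors from autosomal genes and 1 quasi-likelihood fit over all 15 TX1072 libraries. Tests were two-sided, and p-values were adjusted with Benjamini-Hochberg over all 18871 tested genes at a threshold of 0.05. The deletion lines were fitted in the same way over their 30 libraries. Gene positions are from GENCODE M21, which matched 51544 of the symbols. Pairs of libraries of the same day differed by far more than sampling noise, so each counted as a replicate. Since each replicate was a separate differentiation, replicate numbers pair the days: deviations of same-numbered libraries from the means of their days correlated with r = 0.478, 0.449 and 0.201 across genes. Between differently numbered libraries r ran from -0.451 to 0.128. The main fit did not use this pairing, so its SEs and adjusted p are those of an unpaired test. The replicate block among the alternatives did use it. On simulated counts for 18309 genes with 200 changed genes in this design, the test recovered 19.4% of 1.5-fold, 88.1% of 2-fold and 100% of 4-fold changes, and 3.5% of its calls were unchanged genes. Far fewer genes were changed in the simulation than were called in the data, so these shares describe the simulated setting only.

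The gene lists, and the genes described, were chosen with earlier results of these data known. Named genes are Xist, Nanog, Esrrb and Dnmt3a, the 15 largest increases and decreases among called genes with days that did not overlap and a mean count of at least 100, up to 6 members of each list with the largest and 2 with the smallest changes at the same mean count, and any member of the signalling, methylation and X-inactivation lists. Members named outside this rule (Actb, Actg1, Dpt, Hoxb1, Hoxc8, Nr0b1, Sox2, Sox17, Vcl) were chosen after their values were seen, and a few genes are not reported here. Genes were described by counts, without a test of whole lists. Alternatives were DESeq2 1.42.0, its size factors, TMM over all genes, no filter, at least 1 CPM in 3 libraries, a replicate block, the 6 libraries alone, and each library left out. Allelic fold changes used counts summed over the libraries of a day with a pseudocount of 0.5. Intervals cover counting error only.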

Additional observations from a re-analysis of the deposited data

Results flagged for a closer look

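Spen differed between lines in direction. It rose in TX1072, with a log2 fold change of 0.63, and every day 1 library lay above every day 0 library, whereas in TXdXicCast it stood at -0.51 and every day 1 library lay below every day 0 library. In TXdXicB6 the value was 0.05. The difference between the lines was not tested. The tables were made with different kits, and the day 0 RNA of TXdXicCast was degraded; their part in the result was not tested.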

How the results depend on the processing

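The counts of genes higher (4437) and lower (4423) at day 1 ranged from 3653 to 5041 and from 3659 to 4786 over the alternatives, and the calls shared with the deletion lines stayed within 1.5 times. The median log2 fold change of all genes lay between -0.03 and 0.02. The share of called genes that were higher was 50.1%, and 49.5% to 54.5% under the alternatives. No named gene that was called changed direction, while several that were not called did, among them Tcf7l1, Srf, Mki67, Phgdh, Pgam1 and Tet3 under another scaling or filter. Over the genes named and the settings tried, a call was lost 40 times, most often for Aurka and Mcm4, gained 16 times, and unaltered 2358 times. With the replicate block, 4714 genes were higher and 4786 lower, 5 mitochondrially encoded genes were lower instead of 1, and Rlim and Id3 were called. The block moved no other list count by over 1.5 times. With only the 6 libraries, mt-Co1, Tdg and Zic2 lost their calls. Without a filter on low counts, Jak1 lost its call and Egr1, Fgf4, Id3, Rlim and Tubb3 gained one, as did Rlim with DESeq2 and Id3 with its size factors. Of 37 list medians, 8 changed sign under some alternative. Leaving out 1 library also moved by over 1.5 times the medians of exit drivers (0.11 without replicate 2 of day 1), endoderm genes (0.22 without replicate 1 of day 0), Polycomb genes (-0.09 without replicate 3 of day 0 and -0.10 without replicate 2 of day 1), cholesterol synthesis (-0.08 without replicate 2 of day 0 and -0.12 without replicate 1 of day 1), the nuclear respiratory chain (-0.15 without replicate 3 of day 1), mitochondrially encoded genes (-0.52 and -1.37 without replicates 2 and 3 of day 1) and proliferation genes (-0.09 without replicate 2 of day 0 and -0.07 without replicate 3 of day 1), and several medians within 0.1 of 0. Without a filter on low counts, medians moved to -0.17 for BMP and Id genes (from -0.41), -0.07 for Xist cofactors (from -0.12), -0.34 for neural genes, -0.20 for trophectoderm genes and -0.08 for proliferation genes. With at least 1 CPM in 3 libraries they were 0.03 for endoderm genes (from 0.40), -0.06 for neural and 1.21 for mesendoderm genes, and with only the 6 libraries 0.26 for endoderm, 1.20 for mesendoderm and -0.16 for fibroblast genes (from 1.44).

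Other list counts moved as follows. With only the 6 libraries of days 0 and 1, no demethylation enzyme was higher (0 against 1), 7 nuclear respiratory chain genes against 12 were lower, and mitochondrially encoded and proliferation genes had 0 lower. Without a filter on low counts, 6 mesendoderm genes were higher, and 7 mitochondrially encoded and 0 proliferation genes were lower. Of the 2 proliferation genes, 1 was lower with DESeq2, 0 with its size factors, 1 with TMM over all genes and 1 with at least 1 CPM in 3 libraries. With each library left out in turn, the genes higher were 4 to 7 among exit drivers, 2 to 4 among MEK-ERK components, 0 to 1 among demethylation enzymes, 1 to 3 among Xist cofactors and 2 to 5 among mesendoderm genes. The genes lower were 3 to 7 for cholesterol synthesis, 6 to 17 for the nuclear respiratory chain, 0 to 6 for mitochondrially encoded genes, 4 to 10 for stress genes, 0 to 3 for proliferation and 19 to 55 for ribosomal proteins. Depth limits the genes near 0 at a day, whose folds are bounds or have wide intervals.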

Other observations

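Gene biotypes differed in their share of 2-fold changes, with lincRNA and antisense genes at the top. Of 536 tested lincRNA genes, 159 were at least 2-fold higher and 52 lower (39.4%), and of 419 antisense genes, 109 were higher and 36 lower (34.6%). The corresponding numbers were 2005 and 1620 of 14742 protein-coding genes (24.6%), 64 and 44 of 1112 processed pseudogenes (9.71%), 63 and 21 of 260 processed transcripts (32.3%) and 85 and 30 of 700 TEC genes, which are unverified transcripts (16.4%). No test of these shares was made, and the use of strand in the counting, on which antisense genes depend, is not given in the sources used here.

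In 20 of the 1898 genes changed by at least 2-fold and with at least 50 counts on each allele, 1 allele moved against the total. Among them, Itga9, which encodes an integrin subunit (chr9:118606690-118901003), had 31.8% ± 2.69 (SD, n = 3) of its allelic counts on the B6 allele at day 0 and 89.0% ± 0.545 at day 1, from 42 to 66 allelic counts a library at day 0 and 146 to 189 at day 1. Its total rose by 1.25 on the log2 scale, with 2.65 on the B6 allele and -1.44 on the Cast allele. Frem2, which encodes an extracellular matrix protein (chr3:53513938-53657355), had 6.47% ± 3.07 at day 0, from 100 to 227 allelic counts a library, and 52.8% ± 9.94 at day 1, from 35 to 53, while its total fell by 1.86 on the log2 scale. Itga9 and Frem2 have the largest differences between the alleles' changes and were chosen after the values were seen. No minimum was set for the allele that moved against the total. In several of the 20 genes that allele hardly changed on the log2 scale, as in Ap3b2 (0.0092 on Cast) and Fam89a (-0.015 on B6). With 3 libraries against 3, an exact permutation test cannot go below 0.10.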
